A study of Mus musculus with 2 samples.

Results

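Interferon-high muscle stem cells (MuSCs) were a small set of sorted plantaris cells in which the interferon-induced genes Isg15 and Iigp1 together made up at least 1000 CPM, where CPM is the count of a gene per 1000000 unique molecular identifiers (UMIs) of the cell. The members were thus chosen by the measured levels of those 2 genes. There were 62 of them among the 4954 cells deposited, 13 in the library from sham mice and 49 in the library from mice after mechanical overload (MOV). The choice began with cells below 10% mitochondrial UMIs that had at least 2000 UMIs, at least 2 UMIs of the myogenic genes Pax7, Myf5 and Myod1, no UMI of the fibroblast gene Pdgfra and less than 2% of UMIs from the myofiber genes Acta1 and Ckm. Cells with high immediate-early genes (Fos, Jun and Egr1 at 4000 CPM or more), replication histones (Hist1h1b, Hist1h2ap and Hist1h2ae at 1000 CPM or more) or mitotic genes (Ube2c, Ccnb1, Cdc20 and Cenpf at 1000 CPM or more) were left out. The rule left 78 sham and 924 MOV cells, of which 13 (16.7%, exact binomial interval 9.18 to 26.8) and 49 (5.30%, 3.95 to 6.95) were interferon-high. The other 65 sham and 875 MOV cells are called interferon-low here and were the cells of comparison. Intervals in all parts of the text are at 95% and cover counting error only.

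Both libraries came from Pax7rtTA; TRE-H2B-GFP mice, in which the Pax7 promoter drives the doxycycline-dependent activator and doxycycline labels MuSC nuclei with H2B-GFP. At 26 weeks of age the mice had 2.0 mg/ml doxycycline in the drinking water for 2 weeks, and the plantaris was taken 5 days after sham surgery or after MOV, the removal of synergist muscle that loads the plantaris. Cells were sorted as VCAM+ and negative for CD31, CD45 and SCA1 by the study's methods, while the design text speaks of GFP. The methods describe several mice for each condition, and the label of each library gives 1 replicate, so that nothing here measures spread between animals. With 1 library for each condition no test was made, and the sham and MOV libraries cannot be told apart from their conditions. The libraries held 1100 cells with 7302661 UMIs (sham) and 3854 cells with 88498487 UMIs (MOV). Interferon-high cells had a median of 10044 UMIs in sham and 13729 in MOV, against 8637 and 20392 in interferon-low cells. The libraries shared 44 cell barcodes, and 2 interferon-high cells carried one of them, but no barcode was shared between gated MuSCs of both libraries.

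Interferons are secreted proteins that warn cells of viruses and other microbes. Type I interferon acts through its receptor and the kinases JAK1 and TYK2 on a transcription complex with IRF9, which binds the interferon-stimulated response element, whereas interferon gamma acts through JAK1 and JAK2 and the gamma-activated site. The induced genes encode antiviral proteins, guanosine triphosphatases (GTPases) that attack the vacuoles of intracellular microbes, and the machinery that presents peptides on major histocompatibility complex (MHC) class I. Isg15 encodes a ubiquitin-like modifier, and Iigp1 encodes an immunity-related GTPase.

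The start sites of 4 induced genes that did not choose the cells, and of the gate gene Isg15, are shown because their levels carry much of what follows. Each stretch holds the 150 bases upstream of the RefSeq start site in GRCm38.p6, the build of the matrices, read 5′ to 3′ on the strand of the gene. Capitals mark the letters GAAANNGAAA of the interferon-stimulated response element and TTCNNNGAA of the gamma-activated site, searched on both strands.
Isg15 (chr4:156200819-156200968, minus strand): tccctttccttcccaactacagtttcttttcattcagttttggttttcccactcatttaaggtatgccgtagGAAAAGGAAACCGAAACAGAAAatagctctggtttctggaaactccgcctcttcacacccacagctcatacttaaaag
Ifi47 (chr11:49076437-49076586, plus strand): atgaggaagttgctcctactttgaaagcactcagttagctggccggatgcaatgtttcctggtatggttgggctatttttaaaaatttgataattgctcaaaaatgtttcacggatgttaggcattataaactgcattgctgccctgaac
Igtp (chr11:58199406-58199555, plus strand): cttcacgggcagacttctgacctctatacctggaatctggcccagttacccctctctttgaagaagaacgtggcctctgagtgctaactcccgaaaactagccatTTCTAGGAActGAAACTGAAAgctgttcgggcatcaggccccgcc
Gbp2 (chr3:142620513-142620662, plus strand): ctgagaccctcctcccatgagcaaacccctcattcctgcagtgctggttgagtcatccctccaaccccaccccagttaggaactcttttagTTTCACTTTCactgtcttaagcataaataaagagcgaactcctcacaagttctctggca
Ifit1 (chr19:34640739-34640888, plus strand): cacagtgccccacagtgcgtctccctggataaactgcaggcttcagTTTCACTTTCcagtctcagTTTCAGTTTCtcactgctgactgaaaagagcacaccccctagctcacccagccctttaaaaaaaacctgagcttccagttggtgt
The Isg15 stretch held 3 overlapping response-element matches, the first of them beginning 78 bases upstream. Ifit1 held 2 matches, at 104 and 85 bases, and Gbp2 held 1 at 59 bases. Igtp held a gamma-activated site match at 45 bases beside a response-element match at 34 bases. The Ifi47 window held the letters of neither motif. A match is a description of the letters and not a site of binding.

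Over 300-base windows from 250 bases upstream to 50 downstream, 98 of the 128 genes on 4 interferon-induced lists (transcription factors, GTPases, antiviral genes and MHC class I genes) had a RefSeq promoter. The response element was found in 45 of them (45.9%) and the gamma-activated site in 22 (22.4%), against 3.99% and 9.55% of all 27025 promoters. By list, the response element stood in 12 of 15 GTPase genes (80%), 26 of 55 antiviral genes (47.3%), 5 of 20 MHC class I genes (25%) and 2 of 8 transcription factor genes (25%). These letters therefore differed in frequency among the families whose levels are described next. Among list genes at least 2-fold higher in MOV interferon-high cells, 29 of 68 promoters held the response element (42.6%), and among those tested and not 2-fold higher, 5 of 16 (31.2%).

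The gate genes themselves are given as a description of how the cells were chosen. In MOV the summed level of Isg15 was 760 CPM and that of Iigp1 1006 CPM in interferon-high cells. In sham the same cells had 226 CPM of Isg15 and 1484 CPM of Iigp1. A sham member carried 8 to 77 UMIs of the gate genes (median 22) and a MOV member 6 to 130 (median 23), so single members rested on few molecules. Neither gate gene had a UMI in 38 of 65 sham and 562 of 875 MOV interferon-low cells. Just inside the limit, between 1000 and 1250 CPM, lay 5 sham and 16 MOV cells, and just outside, between 750 and 1000 CPM, 3 and 12 cells, without a gap at the limit.

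**Figure D1:**
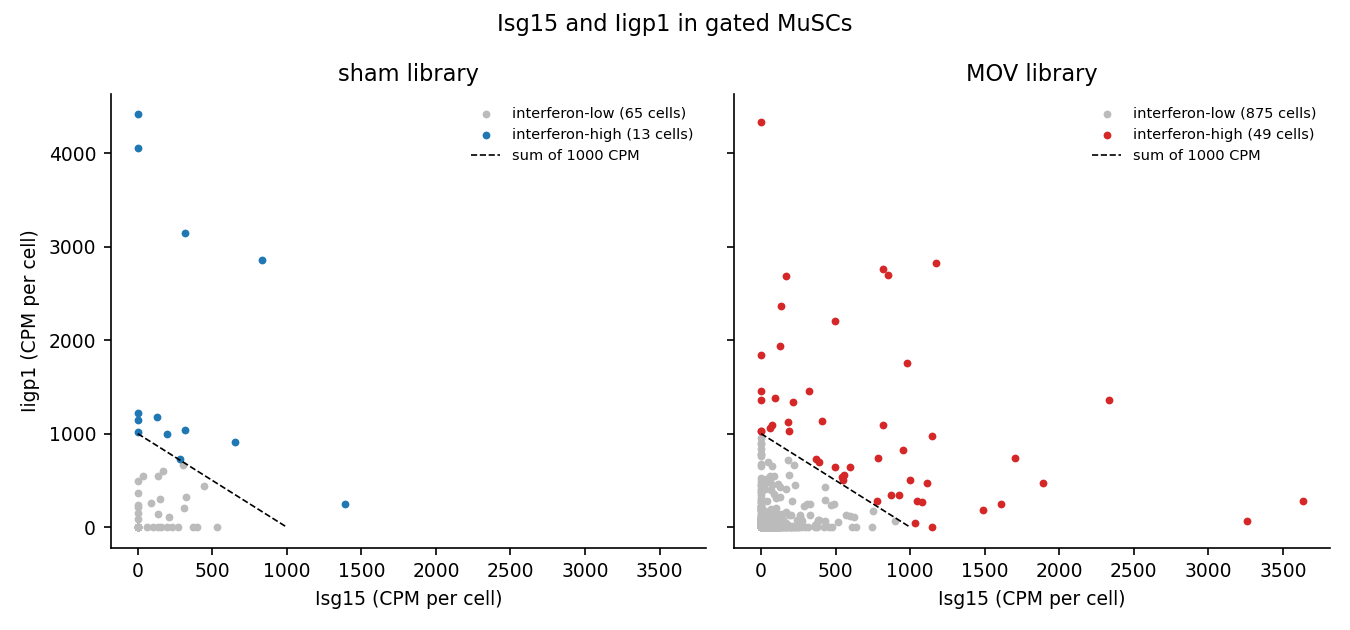
Isg15 and Iigp1 in single gated MuSCs, in CPM of the UMIs of each cell, for the sham and MOV libraries. Each point is 1 cell, with interferon-high cells (13 sham, 49 MOV) set apart from interferon-low cells by the limit of 1000 CPM on the sum, and many members have most of their gate UMIs from 1 of the genes.

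The label was checked on its other markers, Ifi47, Igtp and Gbp2, and on genes of other cell types. All 3 markers were at least 2-fold higher in the MOV interferon-high cells, whereas in sham Ifi47 was higher and Igtp and Gbp2 missed the 2-fold rule. T and NK cell genes summed to 6.76 CPM in MOV interferon-high cells and 0.376 CPM in interferon-low cells, with 10 of the 12 genes at 0 UMIs in the former, Cd3e, Cd3d, Cd3g and Cd8a among them, and 4 UMIs of Prf1 and 2 of Trac making up the sum. Macrophage genes summed to 33.8 and 32.9 CPM, with 1 UMI of the leukocyte gene Ptprc among 49 cells. Endothelial genes summed to 55.2 and 19.6 CPM in MOV and to 0 and 19.1 CPM in sham. Of the 10 endothelial genes, Pecam1, Kdr, Cldn5 and Emcn had no UMI in the MOV members, Cdh5, Esam, Egfl7 and Vwf had 1 UMI each and Tek had 7. Ly6c1 held the other 38 UMIs, 52.6% of them in 1 cell, and was at least 2-fold higher at a log2 ratio of 2.05, or 0.23 without the cells over 200 CPM of Myog. Mural genes summed to 1186 and 1160 CPM and Schwann genes to 40.6 and 28.3 CPM in MOV, with Kcnj8 (1.53) and Ngfr (1.60) past the same rule. The part of these cell types in the results was not tested. Fibro-adipogenic genes summed to 1623 CPM in MOV interferon-high and 577 CPM in interferon-low cells (1143 and 1030 CPM in sham), and their genes are taken up below.

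More interferon list genes were higher in the members than in interferon-low cells in MOV than in sham. Each ratio rests on both classes. In interferon-low cells the GTPases called guanylate-binding proteins summed to 76.9 CPM in MOV and 341 CPM in sham. In the members they summed to 1084 and 975 CPM. A gene was called when its summed level differed at least 2-fold between interferon-high and interferon-low cells with an interval clear of 0, over at least 20 UMIs, with gate and mitochondrial genes left out. Across all 12247 genes tested in MOV, 475 were higher (3.88%) and 406 lower (3.32%), with a median log2 ratio of -0.01. Of the 102 genes tested on the 4 lists, 82 were higher and none lower, with a median of 2.44. Across all 4729 genes tested in sham, 389 were higher (8.23%) and 123 lower (2.6%), with a median of 0.10. There 27 of 59 list genes were higher and none lower, with a median of 1.12. The sham counts over all genes turned with the scaling, to 200 higher and 281 lower with the TMM factors of edgeR and to 229 and 243 with DESeq2 size factors, which moved all sham ratios by -0.28 and -0.23. The list counts in sham were then 20 and 24. A single sham member held 63059 of the 208214 UMIs of the class, and with the highest member of each gene left out 102 genes and 14 list genes were higher in sham, against 200 and 78 in MOV. Isg15 and Iigp1, which chose the cells, belong to the same program as the lists, so these counts describe what the cells contain and do not support the choice.

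**Figure D2:**
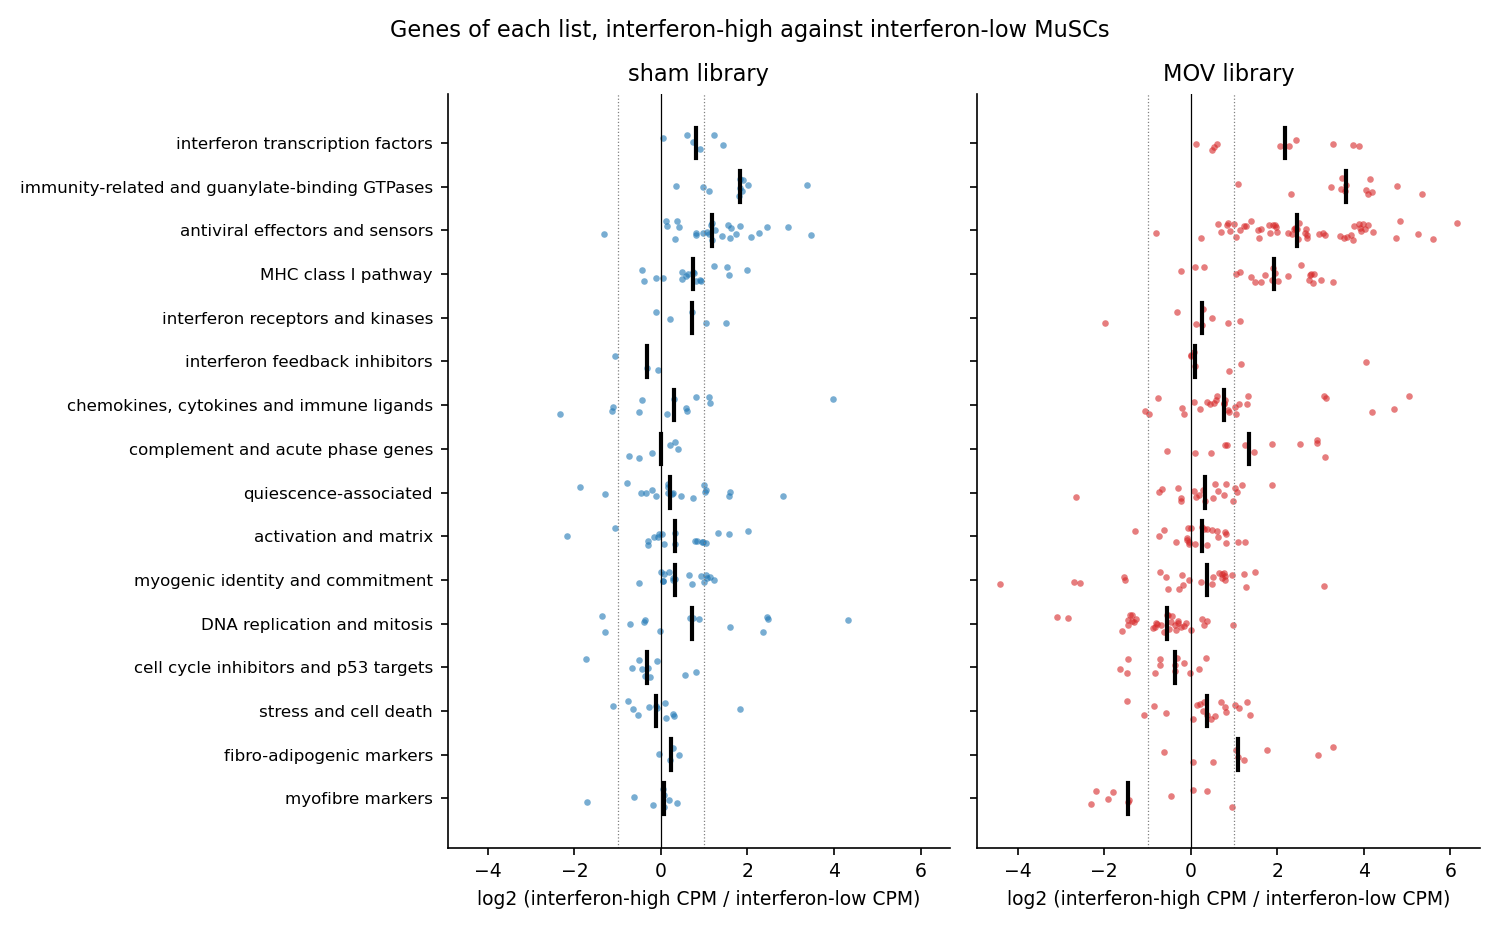
Log2 ratio of summed CPM, interferon-high over interferon-low cells, for each tested gene of each list in sham and MOV. Points are genes, dotted lines mark 2-fold, and the mark on each row is the list median, which in MOV is 3.58 for the GTPases and 2.45 for the antiviral genes, and -1.45 for the myofiber genes.

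Among the transcription factors, 6 of 10 tested genes were higher in MOV with a list median of 2.17, and 2 of 6 in sham with a median of 0.82. Irf7, the amplifier of type I interferon transcription, was 122 CPM in MOV interferon-high and 8.28 CPM in interferon-low cells, a log2 ratio of 3.88 (3.53 to 4.22). Over the 49 cells its level ran from 0 to 652 CPM with a median of 83.8, and 16 cells had no UMI. In interferon-low cells the range reached 382 CPM, so the classes overlapped, and 754 of 875 cells had none. In sham Irf7 was 62.4 against 23.2 CPM, 1.43 (0.27 to 2.56), or 1.15 with TMM factors, where it no longer passed. Irf9, a DNA-binding part of the complex that type I interferon activates, was 38.3 against 9.15 CPM in MOV, 2.06, and Stat2 was 20.3 against 4.18 CPM, 2.28. Irf8 was 31.5 against 5.89 CPM in MOV, 2.42, and 86.5 against 36.8 CPM in sham, 1.23, or 0.95 with TMM factors. Irf1 and Irf2 did not pass the 2-fold rule. Irf1, an early interferon target, was 77.7 against 55.4 CPM, 0.49 (0.12 to 0.84), and Irf2, which competes for the same element, 110 against 76.3 CPM, 0.53 (0.22 to 0.83).

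The receptors and the kinases beside them differed little in MOV, with 1 of 8 genes called. Jak2, the kinase of the interferon gamma receptor, was 33.8 against 15.4 CPM, 1.14 (0.55 to 1.67), or 0.86 without the cells over 200 CPM of Myog, where none of the 8 was called. The receptor chains Ifnar1, Ifnar2, Ifngr1 and Ifngr2 had log2 ratios of 0.13, 0.86, 0.28 and -0.31, and Jak1 had 0.50. In sham Ifngr1 was the one called, at 154 against 54.5 CPM, 1.50 (0.78 to 2.20). The ligands themselves were not found in the members. None of the 21 interferon genes on the list had a UMI in interferon-high cells, which allows up to 14.4 CPM in sham and 3.38 CPM in MOV by the floor of 3 counts. In all cells of the libraries together, whatever their type, sham held 1 ligand UMI and MOV 25, of which 7 were Ifng, and no cell with one of them held Ptprc. Of the feedback inhibitors, 2 of 7 were higher in MOV, namely Socs1, which blocks the JAK kinases, at 42.8 against 19.3 CPM, 1.15 (0.63 to 1.63), and Usp18, which removes ISG15 and blocks the type I receptor, at 21.4 against 1.30 CPM, 4.05 (3.14 to 4.92). Socs3 was 55.2 against 51.4 CPM, 0.10.

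The GTPases were the family with the highest list median, 3.58 in MOV with 12 of 14 tested genes higher and 1.82 in sham with 8 of 10. They comprise the immunity-related GTPases and the guanylate-binding proteins. Igtp was 122 CPM in MOV interferon-high and 6.69 CPM in interferon-low cells, 4.18 (3.82 to 4.55), with a UMI in 32 of 49 and 105 of 875 cells. Ifi47 was 119 against 4.39 CPM, 4.77 (4.36 to 5.17). Irgm1, which guards the cell's own membranes from the other members, was 155 against 13.8 CPM, 3.49 (3.19 to 3.78). Each of these genes had members at 0 and single interferon-low cells above 500 CPM, so the classes overlapped. In sham, Ifi47 was 91.3 against 24.5 CPM, 1.90 (0.89 to 2.91), and Irgm1 was 399 against 184 CPM, 1.12 (0.70 to 1.52), or 0.84 with TMM factors, whereas Igtp was 76.8 against 59.9 CPM, 0.36 (-0.57 to 1.21). F830016B08Rik, of the same family, was 259 against 23.3 CPM in MOV, 3.47, and 355 against 34.1 CPM in sham, 3.38, but it lies on the same chromosome as the gate gene Iigp1, and reads of related family members may have been split between them, so its value is uncertain.

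Of the guanylate-binding proteins, Gbp2 had the highest level. It was 475 CPM in MOV interferon-high and 28.5 CPM in interferon-low cells, 4.06 (3.88 to 4.24). Single members ran from 0 to 4099 CPM with a median of 218, 7 of 49 were at 0, and the highest one held 37.4% of the UMIs. Without that cell the ratio was 3.53. Gbp7 was 260 against 15.2 CPM, 4.10 (3.86 to 4.34), Gbp3 135 against 11.3 CPM, 3.58 (3.26 to 3.90), Gbp6 90.1 against 5.14 CPM, 4.13, and Gbp5 84.5 against 7.19 CPM, 3.55. In sham, Gbp3 and Gbp7 were higher at 2.00 and 1.79, while Gbp2 was 303 against 154 CPM, 0.97 (0.51 to 1.43). Gbp4, with 3 UMIs in the members, was not called in MOV at 1.09 (-1.25 to 2.75).

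Antiviral genes followed, with 45 of 56 tested genes higher in MOV at a list median of 2.45, and 14 of 26 in sham at 1.19. Among the IFIT proteins, which bind foreign RNA, 3 of 4 were higher in MOV. Ifit3 was 122 against 1.71 CPM in MOV, 6.15 (5.62 to 6.71), and Ifit1 was 121 against 2.51 CPM, 5.59 (5.12 to 6.07), while Ifit2, with 7 UMIs in the members, was not called at 0.86 (-0.49 to 1.95). Ifit3 and Ifit1 had UMIs in 22 of 49 members, and in 28 and 26 of 875 interferon-low cells. In sham Ifit1 was 67.2 against 19.1 CPM, 1.82 (0.64 to 3.00). Rsad2 (viperin) was 55.2 against 3.64 CPM in MOV, 3.92, and Oasl2 87.9 against 6.40 CPM, 3.78. Zbp1, a sensor of Z-form nucleic acid, was 196 against 18.0 CPM, 3.45 (3.18 to 3.70), and Ifi44, Xaf1 and Rtp4 had ratios of 5.26, 3.10 and 3.91. The next genes were common in both classes. Bst2 (tetherin), a surface protein that holds virions at the membrane, was 480 against 90.9 CPM, 2.40 (2.25 to 2.55), with 43 of 49 members above 0. Ifitm3, which blocks viral entry, was 3766 against 1294 CPM, 1.54 (1.49 to 1.59). Ifitm2 and Ifi27 did not pass the 2-fold rule at 0.63 and 0.91, and Ifitm3 did not in sham, at 0.36 (0.21 to 0.52).

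The MHC class I pathway was higher in the members than in interferon-low cells in MOV, and by less in sham. Class I chains summed to 2882 CPM in MOV and 2550 CPM in sham members, and to 693 and 1613 CPM in interferon-low cells. In MOV 19 of 22 tested genes were higher at a median of 1.92, among them all 9 tested heavy and light chains and all 5 immunoproteasome genes. In sham 3 of 17 were higher at a median of 0.75, and none of them was a class I chain. The classical chains H2-K1 and H2-D1 were 551 against 137 CPM, 2.01 (1.87 to 2.15), and 915 against 239 CPM, 1.93 (1.83 to 2.04), in MOV, and their partner B2m was 875 against 237 CPM, 1.89 (1.78 to 1.99). B2m was present in all 49 members, from 223 to 2128 CPM with a median of 852. The interferon-low cells ran from 0 to 2562 CPM with a median of 194, so the ranges overlapped while the medians lay apart. In sham the members did not differ 2-fold from the rest, since H2-K1 was 365 against 356 CPM, 0.04 (-0.35 to 0.41), and B2m 913 against 534 CPM, 0.77 (0.52 to 1.03). The nonclassical chain H2-Q4 was 243 against 30.4 CPM in MOV, 3.00, and its reads may be shared with other H2-Q genes. The transporter subunit Tap1 was 89.0 against 12.3 CPM, 2.85 (2.47 to 3.21), and the immunoproteasome subunit Psmb8 208 against 31.5 CPM, 2.73 (2.49 to 2.96). Psmb8 was higher in sham as well, at 91.3 against 23.2 CPM, 1.98 (0.96 to 3.01). The endoplasmic reticulum chaperones Calr, Canx and Pdia3, which also serve other secreted proteins, had ratios of -0.22, 0.09 and 0.30 in MOV. MHC class II genes were near 0, and 1 of 5 tested in MOV was higher, namely H2-Ab1 at 13.5 against 3.05 CPM, 2.15 (1.13 to 3.04).

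**Figure D3:**
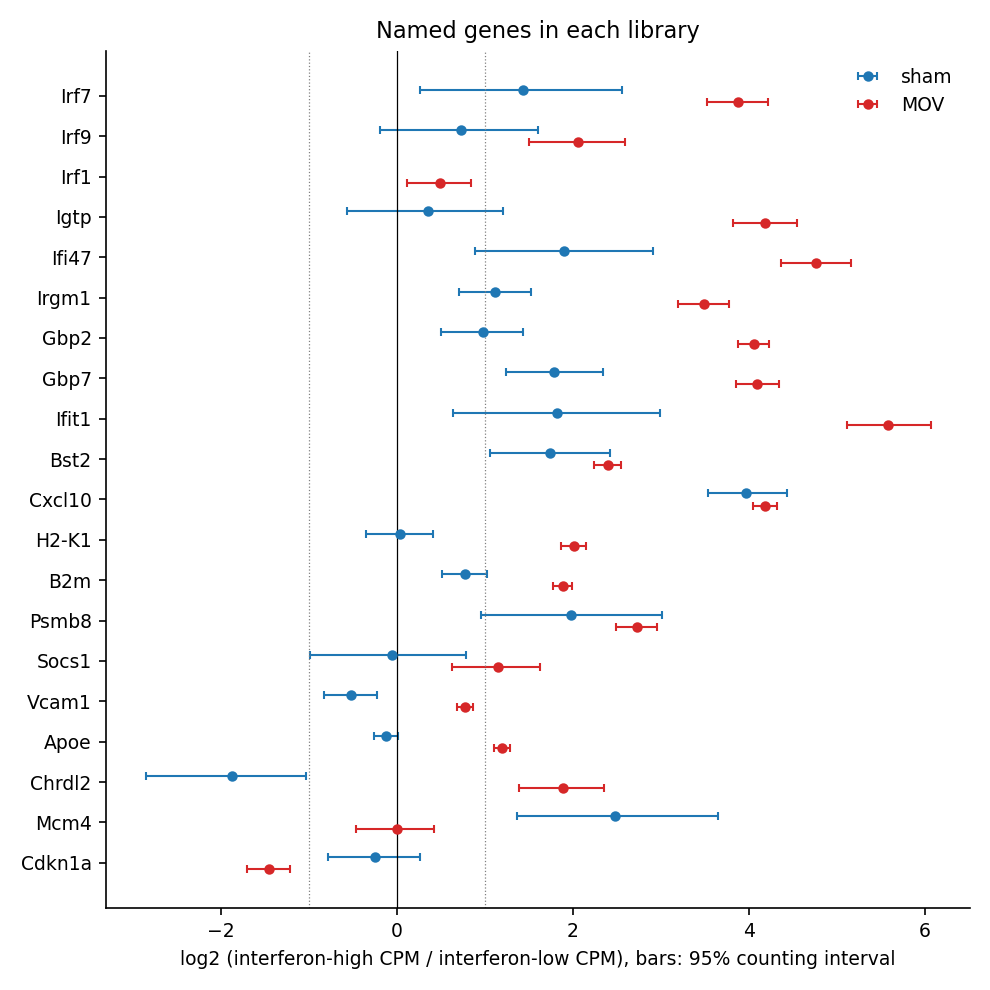
Log2 ratio of summed CPM, interferon-high over interferon-low cells, with exact conditional 95% intervals, for named genes in sham and MOV. In MOV Ifit1 lies at 5.59 and Igtp at 4.18, class I genes near 2, and Cdkn1a at -1.45, while the sham intervals are wide and Irf1 is not drawn in sham because it had under 20 UMIs.

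Secreted and surface signals were less uniform. Of 27 tested genes for chemokines, cytokines and immune ligands, 9 were higher in MOV at a median of 0.78. Cxcl10, which draws T cells through the receptor CXCR3, was 773 CPM in MOV interferon-high and 42.4 CPM in interferon-low cells, 4.19 (4.04 to 4.33). The UMIs lay in 25 of 49 members, the median member had 25.1 CPM, and the highest cell held 23.2% of the UMIs. In sham Cxcl10 was 1114 against 70.8 CPM, 3.98 (3.54 to 4.44), in 7 of 13 members, and 1 of them held 48.3%. Cxcl9, a ligand of the same receptor, was 124 against 4.81 CPM in MOV, 4.69, from 6 members. Ccl5 was 80.0 against 2.42 CPM, 5.04, but 1 cell held 93.0% of its UMIs, and without it the ratio was 1.24. Cd274, which encodes the checkpoint ligand PD-L1, was 13.5 against 1.55 CPM, 3.13 (2.05 to 4.10). When the highest cell of each gene was left out, Cd274, Cxcl10, Cxcl16 and Cxcl9 were the 4 that still passed.

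Other genes of the list had these values. Cxcl1, a neutrophil chemokine, was 456 CPM in sham interferon-high and 2306 CPM in interferon-low cells, -2.34 (-2.65 to -2.04), whereas in MOV it was 582 against 426 CPM, 0.45 (0.32 to 0.58). Ccl2 was 652 against 439 CPM in MOV, 0.57, and 620 against 564 CPM in sham, 0.14. Vcam1, the surface protein used for the sort, was 1247 against 728 CPM in MOV, 0.78 (0.69 to 0.86), and 528 against 756 CPM in sham, -0.52 (-0.83 to -0.22).

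On the list of complement and acute phase genes, 7 of 15 tested genes were higher in MOV and none of 6 in sham. All 7 were among the 9 complement components and inhibitors tested, and none of the 6 acute phase genes was higher. Against interferon-low cells of like depth 9 genes of the list had enough UMIs to be tested, and C1ra and C1s1 were the 2 called. Serping1, the inhibitor of the first component, was 391 against 165 CPM in MOV, 1.25 (1.09 to 1.41). At like depth it was 0.53. C1ra and C4b were 1.88 and 1.46, and Serping1, C1ra and C4b remained when the highest cell of each gene was left out. Of 10 targets and inhibitors of NF-kB, Birc3 was the one higher in MOV, at 29.3 against 14.2 CPM, 1.04 (0.41 to 1.62), and none was called at like depth, without the Myog cells or without the highest cell. Of the 19 stress and cell death genes tested in MOV, 3 were higher. Casp4, the sensor of intracellular lipopolysaccharide, was 119 against 48.4 CPM, 1.30 (1.00 to 1.59). Its substrate Gsdmd was 34.9 against 13.5 CPM, 1.37, with 58.1% of the UMIs in 1 cell. At like depth Gsdmd was called and Casp4 was not. Without the Myog cells Casp4 was called and Gsdmd was not. In sham Casp4 was 269 against 223 CPM, 0.27.

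The myogenic factors of the gate differed less than 2-fold between the classes, and genes of commitment were lower in the members in MOV. Pax7, the transcription factor of satellite cells, was 125 against 70.1 CPM in MOV, 0.83 (0.54 to 1.11), Myf5 249 against 156 CPM, 0.67, and Myod1 208 against 174 CPM, 0.26. These 3 genes entered the gate for both classes. In sham they had ratios of 0.11, 0.12 and -0.86. Of 26 further myogenic genes, 5 were lower in MOV and 2 higher (Cd34 and M1ap), beside 3.32% lower and 3.88% higher over all genes. In sham 2 of 17 were higher and none lower, beside 8.23% higher and 2.6% lower over all genes. At like depth Myog, Mymk and Mymx were lower and none was higher. Myog, the factor of terminal differentiation, was 101 against 603 CPM, -2.57 (-2.89 to -2.27), and 1 member held 60% of what there was. Mymk (myomaker), which is needed for fusion, was 7.89 against 167 CPM, -4.40 (-5.72 to -3.36), or -1.19 without the cells over 200 CPM of Myog. Cells with at least 200 CPM of Myog made up 2 of 49 members (4.08%, 0.498 to 14.0) and 141 of 875 interferon-low cells (16.1%, 13.7 to 18.7). The sham library held none in 13 and none in 65 cells, which allows shares of up to 23.1% and 4.62% by the floor of 3 counts. The 10 genes with the lowest bounds included the contractile genes Myh3, Tnnc1, Actc1, Tnnt2 and Tnni1, with Myh3 at 2.25 against 131 CPM. Mybph and Krt8 had no UMI in the members, and against the floor of 3 counts they were at or below -4.10 and -2.98. Of 10 myofiber genes 6 were lower in MOV and none in sham. With the cells over 200 CPM of Myog left out of both classes, 1 of the 6 remained lower. Of the contractile genes named above, Actc1 then turned to 0.57. Tnnt2, Tnnc1, Myh3 and Tnni1 kept ratios of -3.48, -3.34, -2.27 and -2.15.

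Quiescence genes had list medians of 0.32 in MOV and 0.21 in sham, against -0.01 and 0.10 for all genes. Single genes of the list differed between the libraries. In MOV 4 of 21 tested genes were higher and 1 lower, and in sham 5 of 20 were higher and 1 lower. Apoe, a lipoprotein gene high in quiescent MuSCs, was 1224 against 536 CPM in MOV, 1.19 (1.10 to 1.28), and 2560 against 2780 CPM in sham, -0.12 (-0.26 to 0.02). Against MOV interferon-low cells of like depth it was 0.18, so depth moved with the result, and its part in it was not tested further. Chrdl2, an inhibitor of bone morphogenetic proteins, was 47.3 against 12.8 CPM in MOV, 1.89 (1.39 to 2.36), and 57.6 against 211 CPM in sham, -1.87 (-2.86 to -1.03). Cdkn1c, a brake on the cell cycle in differentiating muscle cells, was 126 against 789 CPM in MOV, -2.64. It was no longer called without the cells over 200 CPM of Myog. None of the 21 genes on the list was higher at like depth. Lgals3, on the list of activation genes, was lower in both libraries, at 155 against 380 CPM in MOV, -1.29 (-1.54 to -1.05), and 62.4 against 279 CPM in sham, -2.16 (-3.09 to -1.35). No gene of that list was lower in MOV at like depth.

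Both classes had been chosen for low histones and low mitotic genes. Of 33 other genes of replication and mitosis, 8 were lower in MOV and none higher, with a median of -0.54. The same 8 were lower without the Myog cells. At like depth 8 were lower as well, with Aurkb and Mki67 in place of Cdc6 and Rrm2. Top2a, the topoisomerase of replicating cells, was 21.4 against 58.9 CPM, -1.46 (-2.20 to -0.81), while the helicase subunit Mcm4 was 50.7 against 50.8 CPM (-0.46 to 0.43). In sham 5 of 14 were higher and 1 lower, with Mcm4 at 91.3 against 16.4 CPM, 2.48, but 1 cell held 63.2% of its UMIs, and 1 cell held all 17 UMIs of Top2a. Of 13 cell cycle inhibitors and p53 targets, 2 were lower in MOV. Cdkn1a (p21) was 161 against 441 CPM, -1.45 (-1.70 to -1.22). It was -1.23 at like depth, and -0.996 without the Myog cells, just short of the 2-fold rule. Ccng1, a p53 target, was 19.2 against 59.6 CPM in MOV, -1.64 (-2.42 to -0.95), and 14.4 against 47.7 CPM in sham, -1.73 (-4.07 to -0.06), where the members held 3 UMIs.

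Several of the highest genes outside the interferon lists came from single cells. Sfrp5 and Lypd2, with 33 and 22 UMIs in the MOV members, had all of them in 1 cell of 16124 UMIs, which also carried 202 of the 445 UMIs of the fibroblast gene Dcn. Dcn was 501 against 149 CPM, 1.75, and 0.91 without that cell. Another cell of 85497 UMIs held 171 of the 255 UMIs of Ly6a, the gene of the surface protein SCA1 against which the cells were sorted, and 58 of 74 UMIs of Il33. Ly6a was 287 against 29.6 CPM in MOV, 3.28 (3.07 to 3.49), and 1.82 without the cell. Of 10 fibro-adipogenic genes 6 were higher in MOV, and Ly6a alone passed without the highest cell of each gene. Ly6a is itself induced by interferon in many cell types. The part of fibroblast RNA in these values was not tested.

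The other interferon genes were graded along the gate level in MOV. Cells were put into bins of the gate level, at 0, up to 200, 200 to 600, 600 to 1000, 1000 to 1500 and above 1500 CPM, which held 562, 199, 84, 30, 23 and 26 cells. Class I chains summed to 493, 739, 1779, 2626, 2673 and 3050 CPM, guanylate-binding proteins to 45.0, 73.8, 236, 579, 692 and 1396 CPM, and IFIT proteins to 5.30, 6.90, 30.8, 94.8, 117 and 393 CPM. Class I levels of the 30 cells just below the limit were thus near those of the 23 cells just above it, and the limit marks no step. IFIT and guanylate-binding sums were again higher in the last bin. In sham the bins held 38, 7, 15, 5, 7 and 6 cells, and class I chains did not rise in order (994, 2438, 2076, 4830, 2056 and 4031 CPM). The 38 sham cells without a gate UMI lay between the second and the third MOV bin in class I level. Myog ran the other way in MOV, at 702 CPM in the lowest bin, 36.6 CPM between 600 and 1000 CPM and 128 CPM in the highest. A single cell of the highest bin held 54 of the 90 Myog UMIs of all MOV members.

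**Figure D4:**
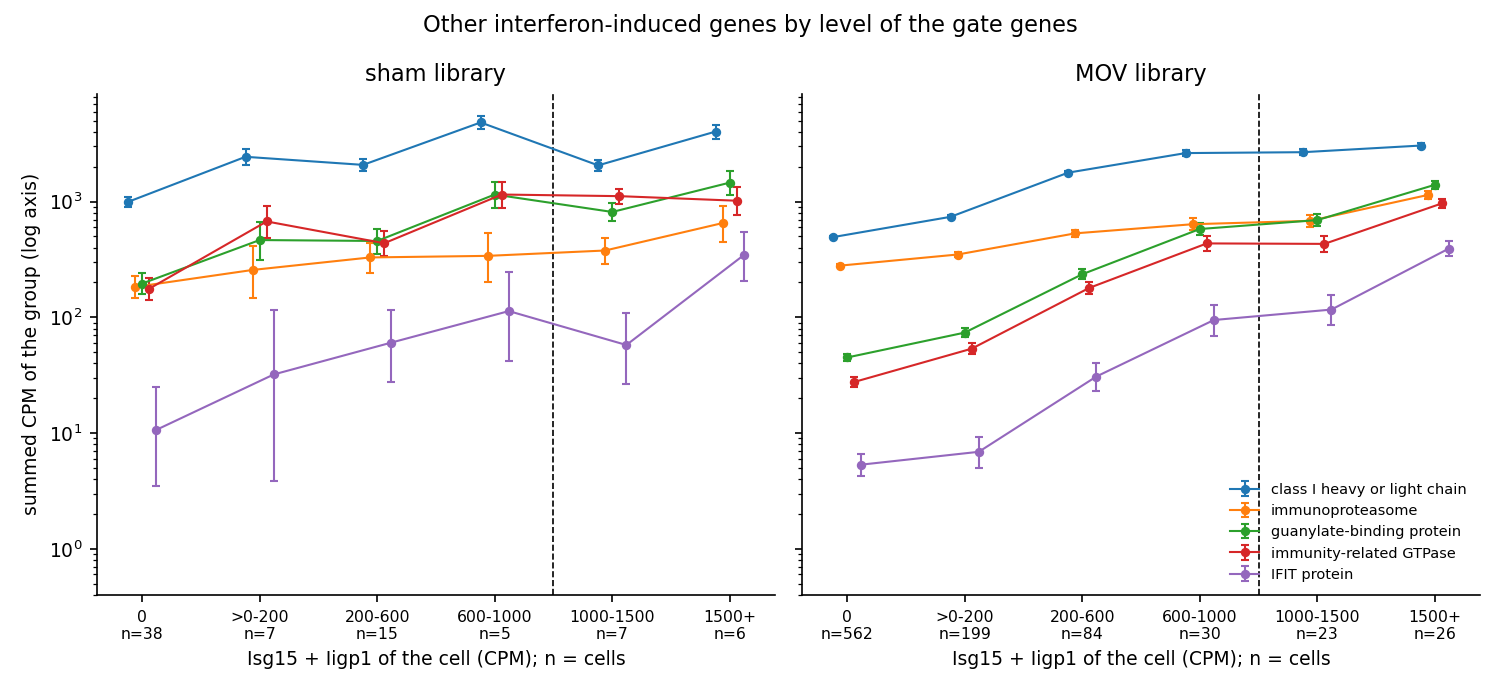
Summed CPM of gene groups (log axis) in cells binned by the summed Isg15 and Iigp1 level, for sham and MOV, with exact Poisson 95% intervals and a dashed line at the limit of 1000 CPM. In MOV class I chains go from 493 to 3050 CPM and guanylate-binding proteins from 45.0 to 1396 CPM across the bins, whereas sham class I levels do not follow the order of the bins.

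The members were divided by which gate gene passed the limit. In MOV 13 passed the limit by Isg15 alone, 22 by Iigp1 alone, 2 by both and 12 by the sum only. In sham 1 passed by Isg15 alone, 9 by Iigp1 alone, none by both and 3 by the sum only, and 5 of 13 had no Isg15 UMI. Over the 49 MOV members the Spearman coefficient of Isg15 with Iigp1 was -0.56, to which the gate contributes, since a cell low in both was not chosen. The division is drawn from the gate genes and leaves out the cells over the limit by both or by the sum only. IFIT and guanylate-binding sums had a coefficient of 0.22 over the same cells, and immunity-related GTPases and guanylate-binding proteins 0.44. All of these cells share 1 library.

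Genes outside the gate were then compared between the 13 MOV cells over the limit by Isg15 alone (Isg15-led) and the 22 over it by Iigp1 alone (Iigp1-led). Of these genes, 3730 were tested, of which 114 (3.06%) were higher in the Isg15-led cells and 180 (4.83%) lower. Of the 63 interferon list genes tested, 19 were higher and 3 lower. The higher genes included Ifit1, Ifit3, Oasl2, Eif2ak2, Ifih1, Zbp1, Trim25 and Irf1. Irf1 had a log2 ratio of 1.39, and without the highest Isg15-led cell 0.82 with a lower bound of -0.14. Ifit1 was 195 CPM in the Isg15-led and 44.1 CPM in the Iigp1-led cells, a log2 ratio of 2.14, or 1.28 without the cell that held 48.8% of it. The summed IFIT genes were 446 against 124 CPM, 1.85 (1.32 to 2.39). Rsad2 was 128 against 19.3 CPM, 2.73, in 5 of 13 and 2 of 22 cells, and 1 cell held 55.6% of the UMIs. The guanylate-binding proteins summed to 983 against 973 CPM, 0.01, but 1 Isg15-led cell held 34.8% of their UMIs, and without it the ratio was -0.53. Class I chains summed to 2878 against 3153 CPM, -0.13. The 3 lower genes were Gbp5, Ifi27l2a and F830016B08Rik, the last at 61.7 against 322 CPM, -2.38, with the same doubt about shared reads with Iigp1. Cxcl10 was 1857 against 554 CPM, 1.74, and 1.09 without the cell that held 40.7% of it. Cxcl9 had no UMI in the Isg15-led cells. Over all Iigp1-led cells it was 154 CPM, with UMIs in 4 of the 22, and 1 cell held 67.9% of them. The cells of each kind come from 1 library, so their division has no replicate.

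**Figure D5:**
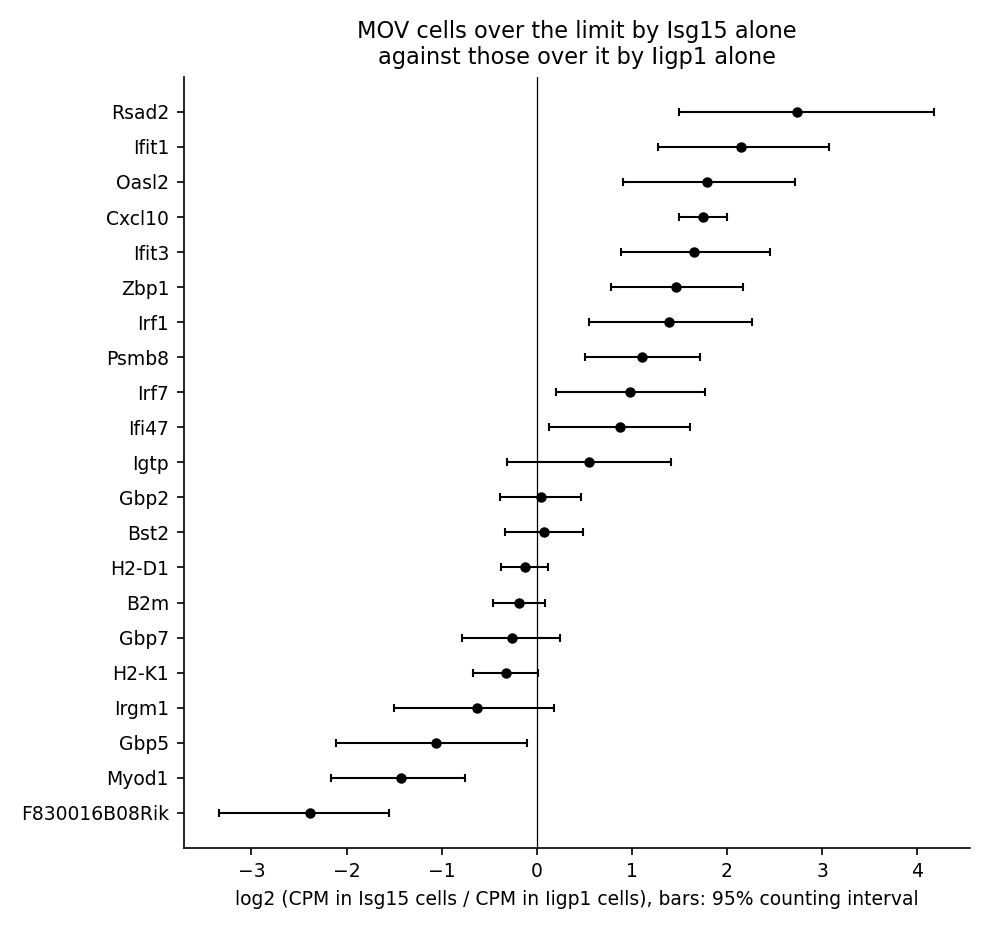
Log2 ratio of summed CPM of named genes, the 13 MOV cells over the limit by Isg15 alone over the 22 over it by Iigp1 alone, with exact conditional 95% intervals. Rsad2 (2.73), Ifit1 (2.14) and Cxcl10 (1.74) lie to the right of 0, the intervals of Gbp2, Bst2 and the class I genes reach across 0 (Gbp2 is at -1.13 without its highest Isg15-led cell), and F830016B08Rik (-2.38) lies to the left.

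Sham and MOV were then compared within each class, as values of 1 library each. In interferon-high cells 351 of 5491 genes were higher in MOV (6.39%) and 413 lower (7.52%), and of 77 interferon list genes 15 were higher and 6 lower, with a median of 0.39 against 0.04 for all genes. Guanylate-binding sums were 1084 CPM in MOV and 975 CPM in sham members, 0.15 (-0.07 to 0.38), and class I chains 2882 and 2550 CPM, 0.18. IFIT genes were 270 and 130 CPM, 1.06, and immunoproteasome genes 937 and 447 CPM, 1.07. Immunity-related GTPases were 728 and 1090 CPM, -0.58, with Irgm1 at 155 and 399 CPM, -1.36. The sums of this group include F830016B08Rik, whose value is uncertain, at 259 and 355 CPM in the members. Its level was 23.3 and 34.1 CPM in MOV and sham interferon-low cells. In interferon-low cells, 1189 of 12221 genes were higher in MOV (9.73%) and 797 lower (6.52%), and of 99 list genes 3 were higher and 41 lower, with a median of -0.90 against 0.21 for all genes. There guanylate-binding sums were 76.9 CPM in MOV and 341 CPM in sham, -2.15, immunity-related GTPases 53.5 and 342 CPM, -2.68, and class I chains 693 and 1613 CPM, -1.22. IFIT genes had a ratio of -1.68, whereas immunoproteasome genes were 323 CPM in MOV and 230 CPM in sham, 0.49 (0.27 to 0.72). The interferon-high cells of both libraries had passed the same limit on the gate genes. The comparisons share the cells of each library and are given side by side only.

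The shares of cells with a UMI were set on equal depth by thinning each cell to 2000 UMIs. A MOV member then had a median of 17 of the 124 list genes in the matrix (range 7 to 41) and an interferon-low cell 7, whereas a sham member had 13 (range 7 to 32) and an interferon-low cell 9. Droplets led by myofiber RNA, which should have few of these genes, had 2 in MOV and 1 in sham. Gbp2 was seen in 40.8% of MOV members and 7.77% of interferon-low cells, B2m in 87.8% and 40.5%, and H2-K1 in 61.2% and 23.7%. In the MOV myofiber droplets the shares were 0 of 23 (which allows up to 13.0% by the same floor), 8.70% and 8.70%. In sham H2-K1 was seen in 23.1% of members and 44.6% of interferon-low cells.

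Other cells of the muscle passed the same limit on Isg15 and Iigp1. In MOV they were 4 of 85 MuSCs high in immediate-early genes (4.71%), 9 of 295 high in replication histones (3.05%) and 18 of 330 high in mitotic genes (5.45%), beside the 5.30% given above. Among cells with Pdgfra they were 41 of 421 (9.74%) in MOV and 5 of 27 (18.5%, 6.30 to 38.1) in sham, beside 16.7% of gated sham MuSCs. Cells with the endothelial genes Pecam1 or Cdh5 gave 23 of 67 (34.3%) in MOV and 7 of 15 (46.7%, 21.3 to 73.4) in sham. Cells with Ptprc and with Tyrobp or Fcer1g gave 5 of 81 (6.17%) in MOV and 0 of 3 in sham. No myofiber droplet passed, out of 359 in sham, which allows a share of up to 0.836% by the floor of 3 counts. The MuSC classes that were left out of the gate had guanylate-binding sums of 85.8 (immediate-early), 61.6 (histone) and 74.1 CPM (mitotic) in MOV. Cxcl10 was 251, 156 and 186 CPM in them. These sums cover all cells of each class, whatever their Isg15 and Iigp1 level. The members, chosen by that level, had 1084 CPM of guanylate-binding proteins and 773 CPM of Cxcl10. MOV interferon-low cells had 76.9 and 42.4 CPM.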

How the data were processed

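Sorted plantaris MuSCs were captured in droplets with 10x Genomics chemistry, 1 library for sham and 1 for MOV. Cell Ranger 6.0.0 was used by the authors for alignment to mm10, and the deposited UMI counts are the filtered output, whole numbers without normalization. The submitters' processing notes also name R 4.0.2 and Seurat 4.0.2, which did not enter the values used here. Pax7rtTA; TRE-H2B-GFP mice were used in both conditions.

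Cells were gated as stated at the start of the results. Doublets were not removed, since the gate does not name them, and doublet removal was tried as an alternative. The UMIs of all cells in a class were added up and divided by the total of that class to give CPM. Log2 ratios between classes have exact conditional 95% intervals, shares have exact Clopper-Pearson intervals, and levels have exact Poisson intervals. A class without UMIs was set to a floor of 3 counts. Genes were tested with at least 20 UMIs over both classes. UMIs mark single molecules, but cells of 1 library share its preparation, so the intervals cover counting error only. No test was made, because each condition had 1 library.

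Named genes were the 10 highest and 10 lowest in MOV by the interval bound nearest to no change, the markers Ifi47, Igtp and Gbp2, and up to 6 members of each list with the most UMIs. The members and lists were chosen with earlier results of these data known. Further genes (such as Gbp5, Gbp6, Rsad2, Oasl2, Rtp4, Tap1, H2-Q4, Cd274, Usp18, Lgals3, Ccng1, Mymk and the genes led by 1 cell) were named after their values had been seen. Genes were matched by symbol, and 124 of the 128 genes on the 4 interferon lists were in the matrices. Promoters were taken from RefSeq (GRCm38.p6).

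Scripts ran in Python 3.11.15 with numpy 2.4.6, scipy 1.17.1, pandas 2.3.3 and matplotlib 3.10.9. Alternative scaling in R 4.3.3 used TMM factors of edgeR 4.0.16 and the size factors of DESeq2 1.42.0. The ratio and its calls were tested on simulated data before use. The simulated counts had no spread between cells, so they cannot show how the calls fare where 1 cell holds most UMIs of a gene. The alternatives were mitochondrial limits, depth, other gate levels, scaling, thinning, the kept cell cycle and immediate-early cells, doublet removal, and 3 added after the data had been seen (interferon-low cells of like depth, cells with Myog left out, and each gene without its highest cell).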

Additional observations from a re-analysis of the deposited data

Results flagged for a closer look

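Chrdl2 and Top2a lay on opposite sides of no change in the libraries, each past 2-fold with its interval clear of 0. Chrdl2 had a log2 ratio of interferon-high over interferon-low cells of 1.89 in MOV, from 42 and 306 UMIs, and of -1.87 in sham, from 12 and 155 UMIs. Without the highest member it was 1.65 in MOV and -2.55 in sham. Top2a was -1.46 in MOV, from 19 and 1410 UMIs, and 4.32 in sham, where all 17 UMIs of the members lay in 1 cell and the interferon-low cells held 3. The difference between the libraries was not tested for either gene, since there was 1 library per condition.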

How the results depend on the processing

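No paired analysis was possible because each condition had 1 library, both labelled as the first replicate, so that the groups share fewer than 2 replicate numbers. The share of interferon-high cells (16.7% in sham, 5.30% in MOV) was 30.4% in sham at a mitochondrial limit of 5%, 26.9% and 9.85% at a gate of 500 CPM, 5.13% and 1.62% at 2000 CPM, and 8.12% in MOV after thinning to 2000 UMIs.

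In MOV, the 475 higher and 406 lower genes became 851 and 682 at 1.5-fold, 167 and 81 after thinning, 261 and 267 against interferon-low cells of like depth, and 200 and 745 without the highest interferon-high cell of each gene, which by construction lowers that class alone. At 2000 CPM 259 were lower. The 82 interferon list genes became 43 after thinning and lay between 74 and 89 under every other alternative run. The 29 higher and 17 lower genes of the other lists became 55 and 28 at 1.5-fold, 8 and 7 after thinning, and 11 and 27 without the highest cell. The higher ones were 13 at like depth and 17 without the Myog cells.

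In sham, the 389 higher genes became 230 at a mitochondrial limit of 5%, 234 at 2000 CPM, 200 with TMM factors, 229 with DESeq2 size factors, 606 without a minimum of UMIs, 41 after thinning and 102 without the highest cell. The 123 lower genes became 203, 73, 281, 243, 18 and 271 at the 5% limit, at 2000 CPM, with TMM, with DESeq2, after thinning and without the highest cell, 232 with the immediate-early, histone and mitotic cells kept, and 194 at 1.5-fold. The 27 interferon list genes became 11 at the 5% limit, 42 at 500 CPM, 1 after thinning and 14 without the highest cell. Of the other lists, the 19 higher genes became 30 at 1.5-fold, 4 after thinning and 4 without the highest cell, and the 9 lower ones 14 at the 5% limit, 20 with the states kept, 4 after thinning and 17 without the highest cell. Sham cells over the limit by Isg15 alone (1) and by Iigp1 alone (9) were 0 and 5 both at the 5% limit and at a minimum of 10000 UMIs. The depth of the 13 sham members therefore limits what can be said of single genes there.

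Of the single genes, the sham log2 ratios at a gate of 2000 CPM turned to -0.54 for Ifi47, -0.28 for Mcm4, -2.02 for Itm2a, -0.012 for Bst2, -0.41 for F830016B08Rik, -0.50 for Ifngr1 and -0.49 for Msc, and that of Ier3 to 0.29 at 500 CPM. In MOV, Actc1 turned to 0.57 without the Myog cells, Ly6c1 to -1.26 and Ly6a to -0.42 at 2000 CPM, Col15a1 to -0.20 at like depth and Kcnj8 to -0.019 without its highest cell. The causes were not tested. Of the other values of single genes, 3782 kept their call. A further 155 passed the 2-fold rule only under the alternative and 101 only under the main settings. Direction was compared only for genes called under the main settings, so genes not called could change sign within the 3782. Mgp, for example, went from 0.49 to -0.80 in MOV without the Myog cells. The alternatives on like depth, Myog cells and the highest cell were chosen after the data had been seen.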

Other observations

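In the sham library several genes outside the interferon lists were higher in the interferon-high cells. The Notch target Hey1 was 96.1 CPM in interferon-high and 13.6 CPM in interferon-low cells, a log2 ratio of 2.82 (1.66 to 4.08), and Hes1, another Notch target, was 298 against 99.4 CPM, 1.58 (1.07 to 2.09). A single cell held 65% of the Hey1 and 64.5% of the Hes1 UMIs, and without it the ratios were 1.36 and 0.61. Sox4 was 696 against 173 CPM, 2.01 (1.66 to 2.36), and 1.69 without its highest cell. The G1 cyclin Ccnd1 was 255 against 84.5 CPM, 1.59 (1.03 to 2.14), and 1.24 without its highest cell. In MOV these genes had ratios of 0.76 (Hey1), -0.66 (Hes1), -0.09 (Sox4) and 0.32 (Ccnd1). Ripk1, a kinase of the death receptor pathway, passed the 2-fold rule in both libraries. It was 182 against 51.8 CPM in sham, 1.82 (1.13 to 2.51), and 73.2 against 36.2 CPM in MOV, 1.02 (0.63 to 1.38). In MOV the ratio was 0.86 without its highest cell, and Ripk1 was not called at like depth or without the Myog cells.

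The matrix genes Tnc and Postn were 338 against 141 CPM, 1.26 (1.09 to 1.43), and 239 against 112 CPM, 1.10 (0.89 to 1.30), in MOV. Their highest cells held 44.7% and 40.1% of the UMIs, and without them the ratios were 0.55 and 0.42.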
